A study of Rattus norvegicus with 9 samples.

Results

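Mitochondrial ribosomal protein genes were examined in RNA sequencing of rat knee cartilage. They were taken from the gene table as the protein-coding entries whose name is Mrpl or Mrps followed by a number, which gave 76 of 32043 genes, 46 named Mrpl and 30 named Mrps. Of these, 3 (Mrpl9, Mrpl11, and Mrpl24) are written in lower case in the table and were counted. The 76 entries carry 75 distinct symbols, because Mrps17 stands on 2 overlapping entries. A total of 74 passed the filter for testing, a mean of at least 0.5 FPKM over the 9 libraries, and both Mrps17 entries fell below it, with 12 and 13 reads over all libraries.

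Cartilage came from male Sprague–Dawley rats, with 3 libraries for each of 3 groups, which the labels call control, koa, and syd. In the control group, the capsule of the left knee was only opened and sutured in rats 8 weeks old. In the model group, KOA (knee osteoarthritis) was made by the modified Hulth method, which cuts out the medial collateral and anterior cruciate ligaments and the medial meniscus and is followed by forced daily activity. The SYD group had the same surgery and then an extract of Shengyu decoction (SYD) by gavage for 4 weeks, at a dose that the labels do not give and that the study's text gives as the highest of its 3. Tissue was taken 8 weeks after surgery. Below, operated libraries means those of the model and SYD groups, although the control knees had also been opened. The labels do not say whether each library came from a separate animal, so every p-value measures only the spread between these libraries, which may be technical. The labels name cartilage as the tissue but mention retinas in the protocol for RNA extraction.

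The mitochondrial ribosome translates the few messenger RNAs of the mitochondrial genome, all of which encode subunits of the respiratory chain and ATP synthase. Its RNAs are made inside the mitochondrion, whereas its proteins are encoded in the nucleus, translated in the cytosol, and imported. Part of these proteins descend from bacterial ribosomal proteins, and part exist only in mitochondria. Genes of such proteins are often read from compact, GC-rich promoters with sites for NRF1, for ETS factors such as GABP, and for YY1.

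Promoters in RefSeq (build GRCr8), each covering 250 bases before and 50 after the annotated start, were found for 60 of the 75 symbols. On both strands, 3 motifs were searched, CCGGAAG for ETS factors, GCGCANGCG for NRF1, and AAGATGGCG for YY1. The ETS motif was in 19 of the 60 member promoters (31.7%), against 9.22% of all 27457 promoters. The NRF1 motif was in 12 (20%, against 6.26%), and the YY1 motif was in 8 (13.3%, against 1.93%). At least 1 of the 3 was in 31 member promoters (51.7%, against 15.5% of all). Median GC content was 55.7% in member promoters and 52.3% in all. A match describes these letters only and is no evidence of binding.

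The promoters below belong to the most abundant member, Mrpl17, and to Mrpl51, which was called in the SYD group. Also shown are those of 3 of the 5 members that met the study's criteria, as applied here, in the model group (Mrpl42, Mrps10, and Mrps31). Capitals mark the motif matches, and Mrpl51 has none. The promoters of the other 2 members that met the criteria, Mrps6 and Mrpl39, hold no match either and are not shown. In Mrpl17, the first stretch in capitals is an NRF1 motif that reads on both strands, shifted by 1 base.
Mrpl17, chr1:169575650-169575949, minus strand: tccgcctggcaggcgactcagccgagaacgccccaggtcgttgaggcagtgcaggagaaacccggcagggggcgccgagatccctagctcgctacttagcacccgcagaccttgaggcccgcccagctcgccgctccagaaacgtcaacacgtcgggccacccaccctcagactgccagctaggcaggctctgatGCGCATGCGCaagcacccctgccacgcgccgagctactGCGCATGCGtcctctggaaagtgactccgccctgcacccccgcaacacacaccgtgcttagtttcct
Mrpl42, chr7:32028473-32028772, minus strand: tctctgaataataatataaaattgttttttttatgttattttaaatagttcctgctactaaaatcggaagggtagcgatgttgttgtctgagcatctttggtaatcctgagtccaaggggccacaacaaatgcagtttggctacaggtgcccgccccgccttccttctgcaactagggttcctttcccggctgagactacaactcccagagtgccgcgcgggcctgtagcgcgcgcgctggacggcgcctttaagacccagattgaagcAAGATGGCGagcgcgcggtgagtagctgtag
Mrps10, chr9:21122404-21122703, minus strand: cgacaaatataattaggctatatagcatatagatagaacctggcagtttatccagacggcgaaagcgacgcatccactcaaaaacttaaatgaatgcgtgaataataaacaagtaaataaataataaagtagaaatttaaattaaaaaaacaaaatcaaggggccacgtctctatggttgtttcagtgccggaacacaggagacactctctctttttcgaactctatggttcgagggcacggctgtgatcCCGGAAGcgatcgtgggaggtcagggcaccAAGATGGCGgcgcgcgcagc
Mrps31, chr16:76324016-76324315, minus strand: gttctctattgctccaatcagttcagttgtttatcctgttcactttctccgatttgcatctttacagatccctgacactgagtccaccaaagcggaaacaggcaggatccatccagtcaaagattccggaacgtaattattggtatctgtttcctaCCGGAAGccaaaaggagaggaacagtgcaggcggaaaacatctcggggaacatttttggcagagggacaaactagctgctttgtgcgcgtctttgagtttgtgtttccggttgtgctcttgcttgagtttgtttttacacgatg
Mrpl51, chr4:159677738-159678037, plus strand: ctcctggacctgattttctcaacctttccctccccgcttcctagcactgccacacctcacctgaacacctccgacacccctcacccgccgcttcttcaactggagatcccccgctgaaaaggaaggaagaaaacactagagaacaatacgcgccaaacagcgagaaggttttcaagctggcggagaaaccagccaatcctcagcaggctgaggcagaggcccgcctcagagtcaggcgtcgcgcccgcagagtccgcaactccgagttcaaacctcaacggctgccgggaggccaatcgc

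In the table's own coordinates, 24 of the 76 members (31.6%) started within 1000 bases of a protein-coding gene on the other strand, against 8.54% of 23098 protein-coding genes. Several partners serve mitochondria, and these were picked after their names were seen. Mrpl43 starts 49 bases from Twnk, the mitochondrial DNA helicase, and Mrps12 starts 206 bases from Sars2, the mitochondrial seryl-tRNA synthetase. Mrpl47 starts 160 bases from Ndufb5, a subunit of respiratory complex I. Gene bodies overlapped another entry for 32 members, 8 of them on the same strand, and the library kit does not mark strand, so reads of such pairs cannot be told apart.

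Libraries differed widely in the share of reads on genes of the mitochondrial genome. That share was 4.07%, 4.86%, and 4.05% for control, 90.7%, 39.5%, and 81.3% for model, and 23.7%, 34.7%, and 72.7% for SYD. All 6 operated libraries were above all 3 control libraries, and the model and SYD libraries overlapped. By an exact two-sided permutation test, p was 0.1 for model against control and for SYD against control, the smallest that 3 libraries against 3 allow, and 0.2 for SYD against model. The libraries held 14914121 to 19510537 reads, but reads outside the mitochondrial genome numbered 1744769 in model 1, 3611325 in model 3, and 5153851 in SYD 3, against 11106680 to 17373645 in the others.

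Summed over all members, reads were even across the libraries once the mitochondrial genome was set aside. Per 1000000 reads outside it, members took 1738, 2294, and 1969 in the control libraries. The model libraries gave 1662, 2188, and 2018, and the SYD libraries 1653, 1950, and 1933. The 3 groups overlapped, with means of 2000 ± 280 (SD, n = 3) for control, 1956 ± 269 (SD, n = 3) for model, and 1846 ± 167 (SD, n = 3) for SYD. Per 1000000 reads of all genes, the same reads ranged from 154 in model 1 to 2183 in control 2 and were lowest in model 1, model 3, and SYD 3, the libraries with the highest mitochondrial share. A sum is weighted to abundant members. The median tested member had 6.41 to 8.14 FPKM in control, 6.14 to 7.88 in model, and 5.69 to 6.34 in SYD, so SYD lay below control without overlap.

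**Figure D1:**
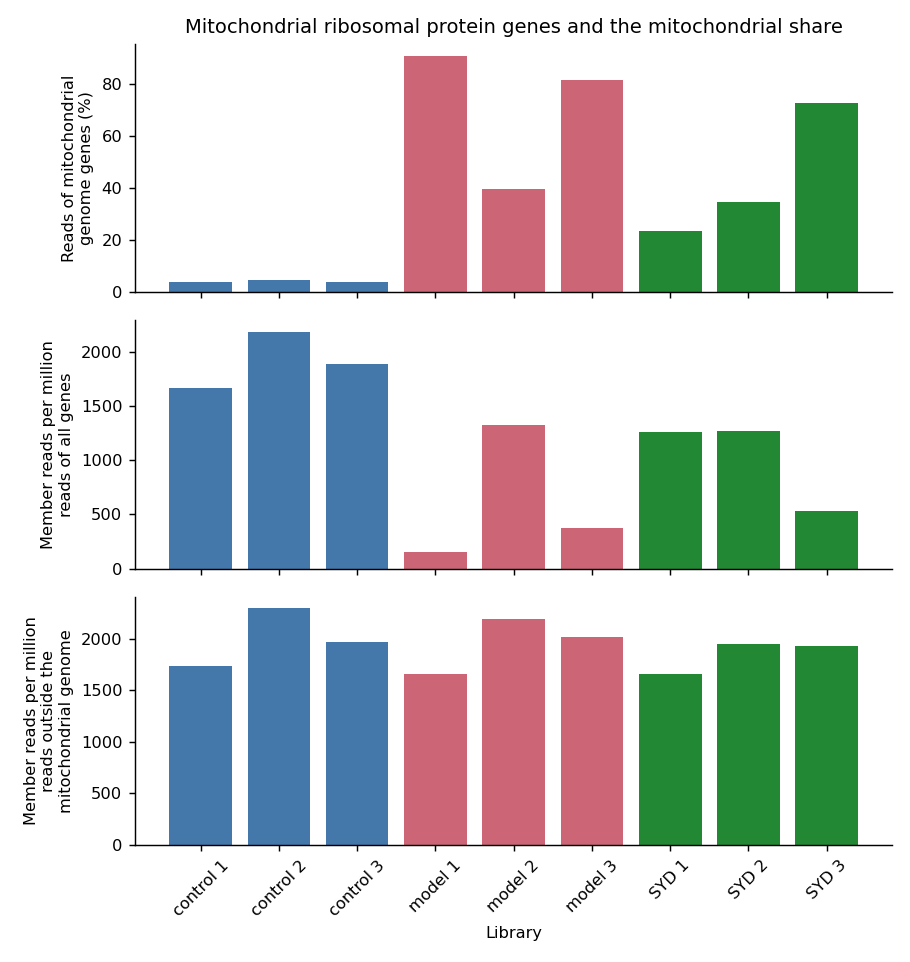
Bars give, for each of the 9 libraries, the percent of reads on genes of the mitochondrial genome (top), reads of the 76 mitochondrial ribosomal protein genes as reads per 1000000 reads of all genes (middle), and the same per 1000000 reads outside the mitochondrial genome (bottom). The mitochondrial share ran from 4.05% to 90.7%, whereas the bars at the bottom stayed between 1653 and 2294.

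Reads of mitochondrial messenger RNA per member read differed widely between libraries. For each member read, the libraries held 24.0, 21.6, and 21.0 reads of mitochondrial messenger RNA in the control group, 5434, 291, and 2023 in the model group, and 182, 262, and 1302 in the SYD group. Every operated library lay above every control library, and the span within the model group was wider than the gap between the group's lowest library and the controls. Nuclear-encoded subunits of the respiratory chain and ATP synthase took 5634 to 8192 reads per 1000000 reads outside the mitochondrial genome. Cytosolic ribosomal protein genes took 32401 to 41506 in the control libraries and 37528 to 84635 in the operated ones, with the highest value in model 3.

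The large and small subunit kept a similar ratio. Reads of members named Mrps per read of members named Mrpl were 0.479 to 0.492 for control, 0.424 to 0.497 for model, and 0.486 to 0.564 for SYD. Names and subunits differ for a few genes. Mrps30 and Mrps18a encode proteins of the large subunit, and Mrps18b and Mrps18c encode relatives of the Mrps18a protein in the small subunit. Mrps30 averaged 8.63 ± 1.18 FPKM in the control, 10.4 ± 5.49 in the model, and 7.41 ± 1.08 in the SYD group (SD, n = 3 each). Mrps18a averaged 6.41 ± 1.43, 7.56 ± 2.08, and 6.98 ± 5.56 FPKM in the same order (SD, n = 3 each). Neither gene had an adjusted p under 0.4 in any comparison.

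FPKM (fragments scaled by gene length and by the authors' library size) allowed levels to be compared between genes. Control means of the 74 tested members ran from 1.12 to 32.2 FPKM, with a median of 7.20. Mrpl17, a large-subunit protein with a bacterial homologue, was the highest, at 32.3, 32.6, and 31.6 FPKM for control, 41.6, 51.7, and 29.4 for model, and 30.1, 32.6, and 37.8 for SYD. It was followed by Mrpl54 with a control mean of 30.3 ± 2.88 FPKM, Mrpl20 with 22.1 ± 0.347, and Mrpl27 with 21.1 ± 1.82 (SD, n = 3 each). Mrpl43 had 18.6 ± 1.35 and Mrps12 had 18.04 ± 4.25 (SD, n = 3 each), and these neighbours did not differ beyond their spread. Among tested members the lowest were Mrps18c, Mrpl30, and Mrpl47, with control means of 1.89 ± 0.320, 1.63 ± 0.165, and 1.12 ± 0.114 FPKM (SD, n = 3 each). Mrpl12, a stalk protein that also binds the mitochondrial RNA polymerase, had 15.9 ± 2.43 FPKM in the control and 19.6 ± 3.01 in the model group (SD, n = 3 each), which overlapped.

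**Figure D2:**
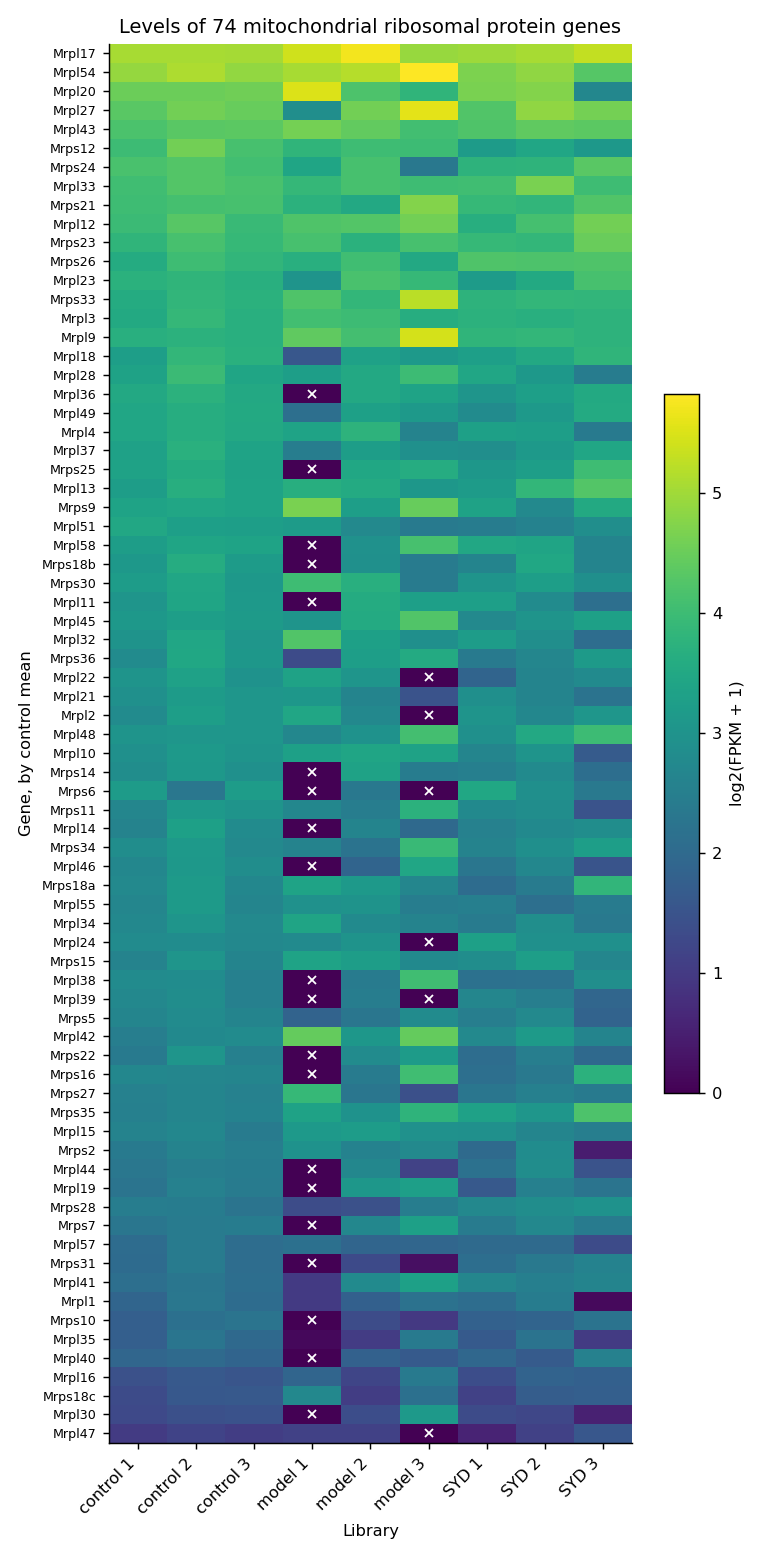
Each row is 1 of the 74 tested genes, ordered by its control mean, each column is a library, and colour gives log2(FPKM + 1), with white crosses on values of 0. The control columns look alike, and the crosses stand only in model 1 (20 genes) and model 3 (6 genes).

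The order of the members was steady in the control group and scattered in the model group. Over the 74 tested members, Pearson's r of log2(FPKM + 1) between libraries was 0.961 to 0.985 among the control pairs, 0.703 to 0.916 among the SYD pairs, and 0.383 to 0.604 among the model pairs. These values are across genes, which share libraries and are not independent replicates, and depth outside the mitochondrial genome differs with them. The median coefficient of variation of a member was 11.5% in the control, 58.1% in the model, and 28.7% in the SYD group. Over the tested genes with a value above 0 in the group (13723, 13295, and 13603), the medians were 17.6%, 85.1%, and 35.3%.

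Zeros made up part of that scatter. In model 1, 20 of the 74 tested members had no read, and in model 3, 6 had none. Mrps6 and Mrpl39 had none in either, and no tested member was at 0 in the other 7 libraries. At its control mean FPKM, each of the 20 would have had 18.4 to 47.8 reads in model 1 (median 32.8), and each of the 6 would have had 37.3 to 67.8 in model 3. The share at 0 was 27.0% of members and 34.8% of all tested genes in model 1, and 8.11% and 25.6% in model 3. Other members stood above the control level in the same libraries. Against the range of the 3 control libraries, 23 members were above and 41 below in model 1, 24 above and 29 below in model 2, and 35 above and 34 below in model 3. Over all tested genes, 28.8% were above and 57.8% below in model 1, 40.7% and 41.9% in model 2, and 34.9% and 52.9% in model 3. Of the 74 members, 10 were above and 45 below in SYD 1, 21 and 31 in SYD 2, and 28 and 31 in SYD 3. The shares of all tested genes were 41.6% above and 38.7% below in SYD 1, 41.2% and 39.0% in SYD 2, and 37.4% and 44.8% in SYD 3. For 49 of the 74 members (66.2%), the 3 model libraries lay on both sides of the control mean, against 60.3% of all tested genes. The 3 SYD libraries did so for 44 members (59.5%), against 40.4% of all tested genes.

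**Figure D3:**
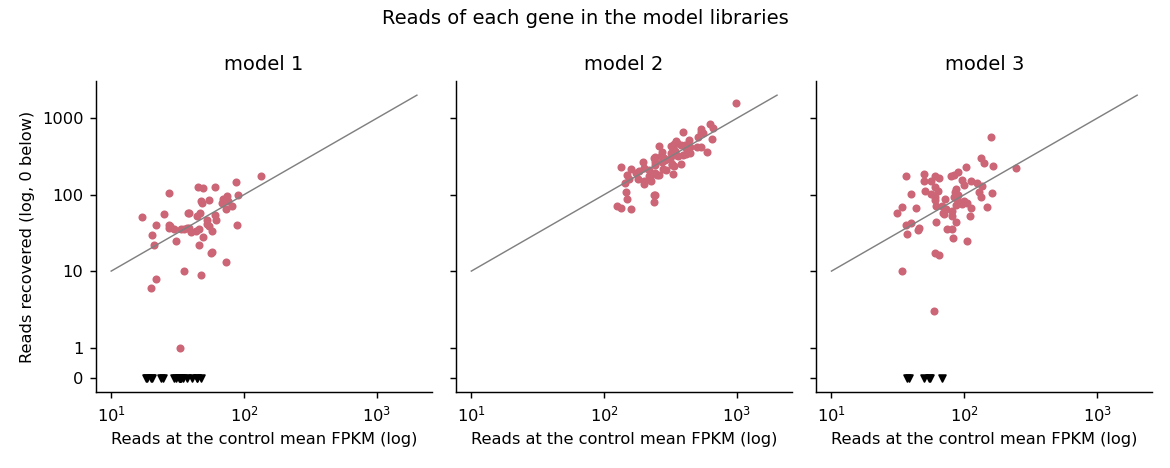
Each point is 1 of the 74 tested genes in a model library, with the reads it would have at its control mean FPKM on the horizontal log axis and the reads recovered on the vertical log axis. Points follow the diagonal of equality closely in model 2, whereas in model 1 and model 3 they spread on both sides of it, and triangles at the bottom mark 20 and 6 genes without a read.

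Markers of several cell types differed between libraries as well. Summed FPKM of 14 chondrocyte genes was 500 to 12049 in the control, 176 to 923 in the model, and 172 to 1568 in the SYD group. The sum of 9 neutrophil genes was 3094 to 5846, 71.9 to 7817, and 526 to 3367, and that of 8 erythroid genes 6563 to 16314, 296 to 42470, and 1312 to 13582. Summed B cell genes (7) gave 266 to 353 in the control, 5.91 to 49.3 in the model, and 8.83 to 41.2 in the SYD group. Osteoblast genes summed to 3005 to 5971 FPKM for control, 1248 to 7481 for model, and 7764 to 10498 for SYD, so all SYD libraries stood above all the controls. Synovial fibroblast genes gave 1122 to 2385, 504 to 3045, and 2305 to 3780 in the same order, and skeletal muscle genes 19.5 to 309, 36.6 to 643, and 26.5 to 910. The part of these cell types in the results below was not tested, and in bulk tissue fewer cells of a type and less RNA per cell cannot be told apart.

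Model and control libraries were compared to ask what the KOA procedure, with its forced activity, changed against opening of the capsule alone. The study called a gene a DEG (differentially expressed gene) at an absolute log2 fold change over 1 with a p under 0.05, without naming an adjustment, and these criteria were applied here with the unadjusted p of limma on log2(FPKM + 1). Of 74 members, 5 were DEGs, 1 raised (Mrpl42) and 4 lowered (Mrps31, Mrps6, Mrps10, and Mrpl39). The share among all tested genes was 14.7%, with 3.55% raised and 11.2% lowered. None of the members had an adjusted p under 0.05 (limma, Benjamini-Hochberg), against 2.59% of all genes, and 7 had an unadjusted p under 0.05, against 19.2%. The median log2 fold change was -0.17 for the members and -0.23 for all genes. Libraries of both groups did not overlap for 14 members, 18.9%, against 28.7% of all genes.

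Mrps31 encodes a small-subunit protein found only in mitochondria. Its FPKM was 3.13, 4.34, and 3.24 for control, 0, 1.48, and 0.181 for model, and 3.28, 4.09, and 5.0 for SYD. All 3 model libraries were below the other 6, with 0, 98, and 3 reads where the control mean would give 32.4, 236, and 59.3. The log2 fold change from control to model was -1.66 ± 0.44 (SE; unadjusted p = 0.00893, adjusted p = 0.115 in limma). It was a DEG in each fit without 1 library, with log2 fold changes of -2.06 to -1.41. In the libraries with a mitochondrial share under 50%, which leave model 2 as the lone model library, it was -0.87 (adjusted p = 0.0655 in limma).

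Mrps6, whose product belongs to the bacterial S6 protein family, had 8.13, 3.97, and 8.24 FPKM for control, 0, 4.02, and 0 for model, and 10.1, 6.42, and 4.09 for SYD. Model 2 lay within the control range, and only model 1 and model 3 were below it. From control to model it changed by -2.13 ± 0.74 on the log2 scale (SE; unadjusted p = 0.0264, adjusted p = 0.190 in limma). Slc5a3 and Kcne2 overlap Mrps6 on the same strand, so its reads are uncertain.

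Mrpl39, a large-subunit protein without a bacterial homologue, followed the same libraries, with 5.58, 6.20, and 4.80 FPKM in control, 0, 4.51, and 0 in model, and 5.37, 4.60, and 2.81 in SYD. Its log2 fold change was -1.88 ± 0.73 (SE; unadjusted p = 0.0410, adjusted p = 0.237 in limma), and model 2 lay just below the controls. Mrps10, a small-subunit protein with a bacterial homologue, had 2.39, 3.41, and 3.75 FPKM in control, 0, 1.56, and 0.939 in model, and 2.52, 2.66, and 3.63 in SYD. All 3 model libraries were below the other 6, with 0, 66, and 10 reads. Its log2 fold change was -1.28 ± 0.45 (SE; unadjusted p = 0.0291, adjusted p = 0.199 in limma).

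Mrpl42, a mitochondria-specific protein of the large subunit, went the other way. Its FPKM was 4.64, 5.77, and 6.0 in control, 21.0, 7.46, and 20.8 in model, and 5.71, 7.97, and 5.15 in SYD. Model 1 and model 3 stood far above the rest, and model 2 lay above the controls but below SYD 2. From control to model it changed by 1.31 ± 0.44 on the log2 scale (SE; unadjusted p = 0.0228, adjusted p = 0.177 in limma). By voom on the recovered reads it was 0.73 (unadjusted p = 0.15), and in TPM, where the median of all genes was -2.60, it was -1.63. Copies of Mrpl42 elsewhere in the table, Mrpl42-ps2 among them, were listed without reads. Mrpl42 overlaps an unnamed entry on the other strand, so reads of that pair cannot be told apart.

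The calls depended on which libraries were used. Without model 2, the library with the lowest mitochondrial share of its group (39.5%), 12 members were DEGs and 5 had an adjusted p under 0.05 in limma, Mrpl42, Mrps9, Mrps6, Mrpl39, and Mrps31. In that fit 24.1% of all tested genes were DEGs and 18.9% had an adjusted p under 0.05. Without model 1, 1 member was a DEG, against 19.5% of all genes, and without model 3, 4 were, against 14.3%. Leaving out control 1, 2, or 3 gave 1, 2, and 1 member DEGs, against 10.6%, 9.42%, and 9.55% of all genes. With only model 2 against the controls, 1 member was a DEG, against 23.8% of all genes, and Mrpl17 and Mrps28 had an adjusted p under 0.05 (0.0367 and 0.0400 in limma) at log2 fold changes of 0.67 and -0.94, against 26.3% of all genes with such a p. That fit assumes that the lone model library varies like the control libraries.

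Other large differences did not meet the criteria. Mrps18b gave a log2 fold change of -1.52 ± 0.78 (SE), Mrpl14 -1.38 ± 0.72, and Mrpl36 -1.29 ± 0.95, and each had no read in model 1. Mrpl36 had 10.5 and 9.38 FPKM in model 2 and model 3, against 10.4 to 12.3 in control. Without 1 library, the values ran from -2.09 to -0.63 for Mrps18b, -1.92 to -0.61 for Mrpl14, and -1.90 to -0.14 for Mrpl36. Rises were smaller, with 0.94 ± 0.39 (SE) for Mrpl9, 0.78 ± 0.31 for Mrps35, 0.72 ± 0.40 for Mrps9, 0.72 ± 0.39 for Mrps33, and 0.52 ± 0.26 for Mrpl15. Mrps9 had 8.57 FPKM in model 2, below all 3 controls (9.36 to 9.91), and in the libraries under 50% mitochondrial reads its log2 fold change minus the median of all genes was -0.13. Mrpl15 had 5.06, 5.50, and 4.33 FPKM in control and 7.71, 8.28, and 6.72 in model, which did not overlap although 0.52 is below the fold threshold. Adjusted p-values of these 8 genes ranged from 0.245 to 0.517 in limma. Mrpl14 overlaps Aars2 on the same strand.

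**Figure D4:**
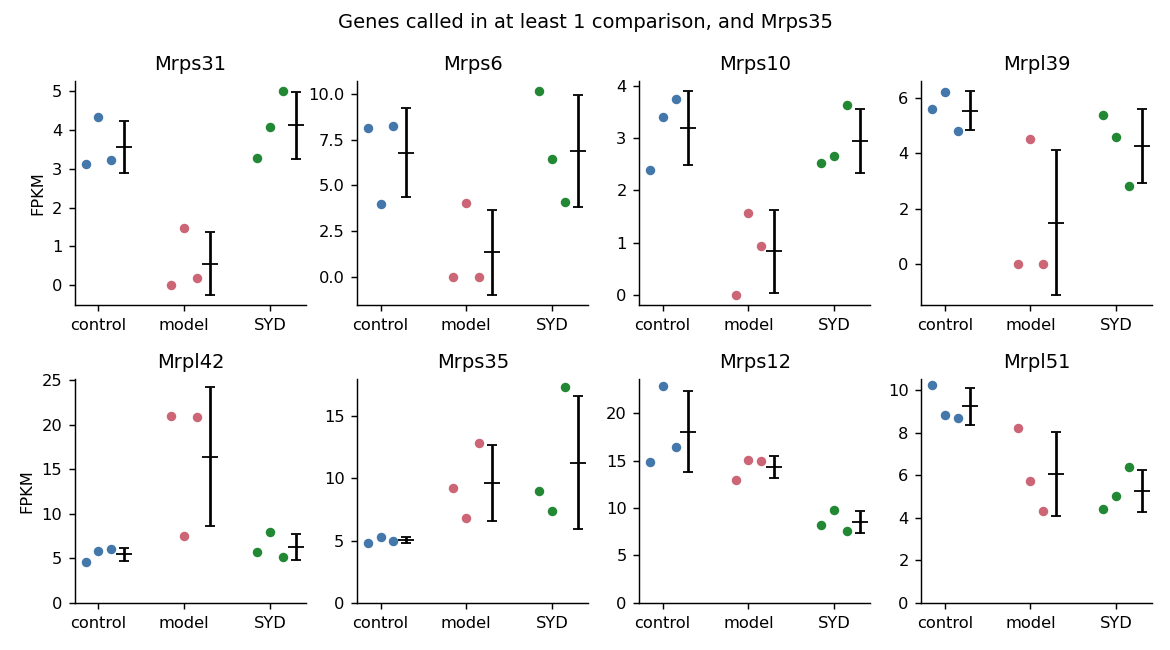
Coloured points give FPKM in each library by group, and black bars give the group mean ± SD (n = 3), for the 5 genes that were DEGs in the model group, for Mrps12 and Mrpl51, which had an adjusted p under 0.05 in SYD against control, and for Mrps35. Mrps31 and Mrps10 were lower in all 3 model libraries than in the other 6, and Mrps12 was lower in all 3 SYD libraries than in the other 6.

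SYD and model libraries were compared to ask what the extract changed after surgery. Of 74 members, 4 were DEGs, 3 raised (Mrps31, Mrps6, and Mrps10) and 1 lowered (Mrpl42), which is 5.41% against 4.15% of all tested genes, with 3.62% of all raised and 0.532% lowered. These genes were also DEGs between model and control, and the same model libraries enter both, so the opposite signs are not independent. None of the members had an adjusted p under 0.05 in limma, where the share of all genes was 0%, and 5 had an unadjusted p under 0.05, against 5.26% of all genes. Libraries did not overlap for 10 members (13.5%), against 11.1% of all genes. The median log2 fold change was 0.06 for members and 0.22 for all genes.

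By size, the rises were led by Mrps6 with 2.13 ± 0.76 on the log2 scale (SE), Mrps31 with 1.83 ± 0.50, and Mrpl39 with 1.54 ± 0.77, and their unadjusted p-values in limma were 0.0291, 0.00934, and 0.0884. Mrps10 followed with 1.20 ± 0.49 (SE), Mrpl14 with 1.19 ± 0.72, and Mrps18b with 1.12 ± 0.82. Each of these 6 had no read in model 1. The falls were led by Mrpl42 with -1.15 ± 0.46 (SE; unadjusted p = 0.0447), then Mrps2 with -0.99 ± 0.66, Mrpl10 with -0.92 ± 0.43, and Mrps9 with -0.91 ± 0.46. Mrpl9 with -0.84 ± 0.40 (SE) and Mrpl32 with -0.76 ± 0.50 came next. The adjusted p was 0.723 for each of the 12 genes in limma. Without model 2, 7 members were DEGs, against 17.95% of all tested genes. Without model 1, model 3, or SYD 3, 2 members were, against 3.04%, 2.73%, and 3.73% of all genes, and without SYD 1 or SYD 2, 1 was, against 2.27% and 2.68%.

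Mrps2 and Mrpl10 were lowest in SYD 3. Mrps2, a small-subunit protein with a bacterial homologue, had 3.06, 6.15, and 0.377 FPKM in the SYD libraries and 5.01 to 6.81 in the model libraries. Mrpl10 had 5.25, 7.04, and 2.20 in the SYD libraries and 8.96, 9.76, and 9.21 in the model libraries, which did not overlap. SYD 3 was also the SYD library with the highest mitochondrial share, 72.7%.

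SYD and control libraries differed in the KOA procedure and the extract at once. None of the 74 members was a DEG, against 16.5% of all tested genes, although 6 had an unadjusted p under 0.05 (8.11%, against 34.5%). By voom on the recovered reads, 1 member was a DEG, against 24.4% of all genes. An adjusted p under 0.05 in limma was reached by 2 members, Mrps12 and Mrpl51, 2.70% against 17.3% of all genes, and both were lower in SYD. Libraries did not overlap for 17 members (23.0%), against 42.5% of all genes. The median log2 fold change was -0.18 for the members and 0.00 for all genes.

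Mrps12 encodes a protein of the decoding centre of the small subunit. Its FPKM was 14.8, 22.9, and 16.4 in control, 13.0, 15.1, and 14.9 in model, and 8.22, 9.82, and 7.58 in SYD. All 3 SYD libraries were below the other 6, and control and model overlapped. From control to SYD it changed by -0.98 ± 0.20 on the log2 scale (SE; adjusted p = 0.0277 in limma), and from model to SYD by -0.69 ± 0.27 (SE; unadjusted p = 0.0402, adjusted p = 0.723 in limma). Sars2, its head-to-head neighbour, had 2.89, 3.73, and 2.87 FPKM in control, 2.25, 0.521, and 0.230 in model, and 1.96, 1.37, and 1.60 in SYD. SYD libraries were below the controls for both genes, but only Sars2 was below the controls in all model libraries.

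Mrpl51, a mitochondria-specific protein of the large subunit, had 10.2, 8.82, and 8.67 FPKM in control, 8.20, 5.72, and 4.30 in model, and 4.43, 5.0, and 6.37 in SYD. All 6 operated libraries were below the controls, and model and SYD overlapped. The log2 fold change of SYD against control was -0.72 ± 0.17 (SE; adjusted p = 0.0404 in limma). In the SYD and control libraries under 50% mitochondrial reads, which leave out SYD 3, it was -0.84 (adjusted p = 0.0198 in limma) and that of Mrps12 was -0.91 (adjusted p = 0.0435 in limma). Leaving out any of control 1, 2, and 3 or SYD 1 ended both calls, and leaving out SYD 2 left 1. With all 9 libraries in 1 fit neither gene was called (adjusted p = 0.103 for Mrps12 and 0.277 for Mrpl51 in limma), nor with the replicate number as a block (0.0658 and 0.132). Over the fits without 1 library, the log2 fold change of Mrps12 stayed between -1.10 and -0.81 and that of Mrpl51 between -0.84 and -0.62.

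Mrps35, a mitochondria-specific small-subunit protein, was the member with the largest rise in SYD against control. It had 4.82, 5.27, and 5.0 FPKM in control, 9.19, 6.80, and 12.8 in model, and 9.0, 7.38, and 17.3 in SYD. All 6 operated libraries were above the controls. The log2 fold change was 0.94 ± 0.31 (SE; adjusted p = 0.0891 in limma) for SYD against control and 0.78 ± 0.31 (adjusted p = 0.245) for model against control, and both comparisons use the same controls. In TPM they were -0.46 and -2.05, where all genes had medians of -1.31 and -2.60. Without SYD 3, SYD against control was 0.60 (adjusted p = 0.0385 in limma).

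Further members did not pass either threshold between SYD and control. Mrps28, with 5.54, 6.22, and 6.87 FPKM in SYD and 4.54, 4.47, and 3.73 in control, gave 0.46 ± 0.16 (SE) on the log2 scale. Mrpl48 gave 0.44 ± 0.28, Mrpl41 0.43 ± 0.15, Mrps26 0.40 ± 0.15, and Mrpl13 0.36 ± 0.29. Without 1 library, Mrpl48 ran from 0.18 to 0.71 and Mrpl13 from 0.115 to 0.64. Mrpl41 then ran from 0.39 to 0.49 and Mrps26 from 0.28 to 0.50. Among the falls, Mrpl46 and Mrps2 each gave -0.72, with SE of 0.33 and 0.60, followed by Mrpl22 with -0.67 ± 0.28 (SE) and Mrpl28 with -0.59 ± 0.31. Leaving out 1 library gave -1.25 to -0.062 for Mrps2 and -0.98 to -0.39 for Mrpl46. It gave -0.85 to -0.40 for Mrpl22 and -0.81 to -0.32 for Mrpl28. Adjusted p-values of these 9 genes ran from 0.0985 to 0.434 in limma. Mrpl46 overlaps Mrps11, another member, on the other strand.

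**Figure D5:**
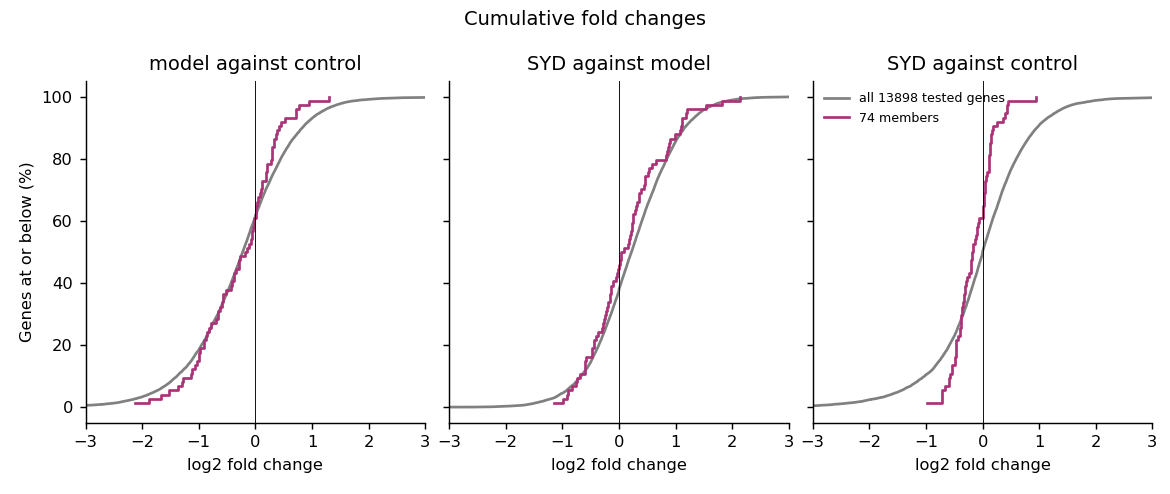
Curves give the percent of genes at or below each log2 fold change, for all 13898 tested genes (grey) and the 74 tested members (purple), in each comparison, and a few genes lie beyond the axis limits of -3 and 3. In SYD against control the members' curve is steeper than that of all genes, with a median absolute log2 fold change of 0.27 against 0.46, whereas in the other comparisons the curves lie closer.

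The members were set beside all tested genes by the size of their differences, without a test. The median absolute log2 fold change was 0.42 for members and 0.57 for all tested genes in model against control, 0.44 and 0.49 in SYD against model, and 0.27 and 0.46 in SYD against control. By class, 29 tested members of the large subunit with bacterial homologues had a median log2 fold change from control to model of -0.11, and 15 of the small subunit had -0.38. Mitochondria-specific members gave -0.38 (18 of the large subunit) and -0.06 (10 of the small subunit). Their interquartile ranges overlapped, from -0.82 to 0.20, -0.75 to 0.15, -0.76 to 0.19, and -0.97 to 0.04. The other 2 tested members, Mrpl55 and Mrps36, were not classified, and the product of Mrps36 is now counted with the 2-oxoglutarate dehydrogenase complex.

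Cytosolic ribosomal protein genes, which serve translation outside the mitochondrion, are given beside their mitochondrial counterparts from the same fits. Of 89 tested, 81 had a positive log2 fold change from control to model, with a median of 0.72, and 14 were DEGs raised and 1 lowered. Of all 13898 tested genes, 5328 had a positive value, with a median of -0.23, and 3.55% were DEGs raised and 11.2% lowered. The medians of the cytosolic genes were -0.48 in SYD against model and 0.25 in SYD against control, where all genes had 0.22 and 0.00. Nuclear-encoded subunits of the respiratory chain and ATP synthase (74 tested) had medians of 0.06 (model against control), -0.12 (SYD against model), and 0.02 (SYD against control). They held 2, 1, and 0 DEGs, where the shares of all tested genes were 14.7%, 4.15%, and 16.5%.

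Genes that make, serve, or control the mitochondrial ribosome were read from lists of 6 kinds. Their counts of DEGs in the model group stand against 14.7% of all tested genes, with 3.55% raised and 11.2% lowered. The list for charging mitochondrial tRNAs held 15 tested aminoacyl-tRNA synthetases and 3 subunits of the amidotransferase that completes glutaminyl-tRNA (Qrsl1, Gatb, and Gatc). Of the 15 synthetases, 5 were DEGs lowered in the model group and none raised, with a median log2 fold change of -0.65. Of the 18 genes together, 6 were DEGs lowered, Qrsl1 included, with a median of -0.67. Fars2, for phenylalanine, was the only gene of the 6 lists with an adjusted p under 0.05 (0.0409 in limma) there. It had 3.04, 3.8, and 2.76 FPKM in control, 0, 0.430, and 0 in model, and 2.05, 2.20, and 5.53 in SYD. All 3 model libraries were below the other 6, and the log2 fold change was -1.89 ± 0.30 (SE). That call held in 6 of 11 alternatives, with an adjusted p of up to 0.254 in limma, and of up to 0.126 without 1 library. In SYD against model, Fars2 gave 1.83 ± 0.45 (SE; adjusted p = 0.723 in limma). Kars1 and Gars1, which also serve the cytosol, were the most abundant of the list over the 9 libraries, followed by Iars2, with control means of 18.3 ± 1.07, 21.0 ± 2.14, and 6.07 ± 0.200 FPKM (SD, n = 3 each).

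Among 9 regulators of mitochondrial biogenesis, 3 were DEGs lowered in the model group, with a median of -0.82, and none was raised. The 3 were Myc, Gabpb1, and Nrf1, and Gabpb1 and Nrf1 were chosen after their values were seen. Gabpb1, the partner of Gabpa in GABP, had 5.71, 5.92, and 5.67 FPKM in control, 2.21, 1.35, and 0 in model, and 3.17, 4.03, and 4.06 in SYD. From control to model it changed by -1.79 ± 0.51 on the log2 scale (SE; unadjusted p = 0.0120, adjusted p = 0.130 in limma). Nrf1 had 3.46, 4.82, and 4.04 FPKM in control, 1.01, 1.89, and 0.0839 in model, and 2.17, 2.49, and 2.26 in SYD. Its change was -1.46 ± 0.46 (SE; unadjusted p = 0.0188, adjusted p = 0.164 in limma), and for both genes all operated libraries were below the controls. Yy1 had 25.2, 26.9, and 25.6 FPKM in control, 27.6, 14.3, and 3.93 in model, and 13.0, 16.0, and 10.5 in SYD. All SYD libraries lay below all controls, whereas model 1 was above them. From control to SYD it changed by -0.94 ± 0.17 on the log2 scale (SE; adjusted p = 0.0212 in limma). The call of Yy1 held in 9 of 11 alternatives, with an adjusted p of up to 0.438 in limma, and of up to 0.0971 without 1 library. Gabpa, the ETS subunit of GABP, had means of 6.70 ± 0.267, 7.05 ± 0.789, and 5.37 ± 0.601 FPKM in control, model, and SYD (SD, n = 3 each). Myc averaged 8.40 ± 1.73, 3.16 ± 2.71, and 7.49 ± 0.764 FPKM in the same order (SD, n = 3 each).

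Of 12 tested genes for transcription and maintenance of the mitochondrial genome, 2 were DEGs lowered in the model group. Tfam, which packages mitochondrial DNA and starts its transcription, had 8.95, 12.8, and 11.4 FPKM in control, 0, 5.88, and 3.21 in model, and 6.78, 6.69, and 4.81 in SYD. All 6 operated libraries were below the controls, while their share of mitochondrial reads was above. On the log2 scale Tfam changed by -1.96 ± 0.73 (SE; adjusted p = 0.217 in limma) in the model and -0.76 ± 0.20 (SE; adjusted p = 0.04998 in limma, just under the threshold) in the SYD group against control. Mgme1, a nuclease for mitochondrial DNA, gave -0.72 ± 0.18 (SE; adjusted p = 0.0486 in limma) in SYD against control. Tfam was called in 3 of 11 alternatives, with an adjusted p of up to 0.606 in limma, and in no fit without 1 library (up to 0.175). Mgme1 was called in 4 of 11, with an adjusted p of up to 0.537 in limma, and of up to 0.161 without 1 library. Lonp1 and Polg, the mitochondrial protease and DNA polymerase, had control means of 19.6 ± 3.57 and 8.56 ± 0.349 FPKM and model means of 8.47 ± 6.64 and 4.65 ± 2.03 (SD, n = 3 each).

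Among 15 tested translation factors, 1 was a DEG raised and 1 lowered in the model group. Tufm, the mitochondrial elongation factor Tu, had 15.2, 18.6, and 13.9 FPKM in control, 12.1, 6.85, and 6.23 in model, and 9.03, 9.03, and 12.03 in SYD, with all operated libraries below the controls and adjusted p-values of 0.199 and 0.0649 in limma. Mtrfr, a release factor for stalled ribosomes, gave -0.62 ± 0.14 (SE; adjusted p = 0.0394 in limma) in SYD against control, and this call held in 4 of 11 alternatives, with an adjusted p of up to 0.416, and of up to 0.132 without 1 library. Tsfm and Lrpprc had control means of 7.55 ± 1.49 and 8.14 ± 0.589 FPKM (SD, n = 3 each). Of 25 assembly and rRNA factors, 1 was raised and 1 lowered as DEGs in the model group, and the most abundant were Poldip2, Grsf1, and Mpv17l2, with control means of 13.7 ± 0.646, 10.7 ± 1.08, and 12.3 ± 1.84 FPKM (SD, n = 3 each). Subunits under other names (4 tested) held no DEG in any comparison and no adjusted p under 0.05 in limma. Chchd1, Gadd45gip1, and Dap3 led that list, and Dap3, the small-subunit GTPase, averaged 5.61 ± 0.382, 5.86 ± 1.82, and 6.70 ± 0.799 FPKM in control, model, and SYD (SD, n = 3 each).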

How the data were processed

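The 9 libraries of rat knee cartilage RNA, 3 per group, were grouped by the sample labels. The authors deposited FPKM per gene, unpooled, with Ensembl rat identifiers, positions, and lengths. The submitters' processing notes name HISAT2 2.0.5 and hg38, a human build, so the build of the positions is not given in the sources used here. The number of value columns left out was 0.

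Multiplied by length, 100% of values up to 1500 reads were whole multiples of 1 step per library (tolerance 0.1), taken as 1 read. Shares and the floor of 3 reads cover counting error only. The library size implied by the FPKM was 1.84 to 2.38 times the reads outside the mitochondrial genome, so these FPKM do not fall as the mitochondrial share rises.

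limma 3.58.1 in R 4.3.3 (eBayes with trend, two-sided) was fitted to log2(FPKM + 1), which understates changes of low genes, over the 6 libraries of each comparison and 13898 genes, with Benjamini-Hochberg adjustment. The fit was tested on simulated data, with the control group's spread in every library and no zeros added. That test therefore does not cover the wider spread and the zeros of the model group.

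Members and lists were chosen with earlier results of these data known. Named were the 6 highest and 3 lowest members by control mean, the 6 largest rises and falls per comparison, those called, Mrps30, Mrps18a, Mrps18b, Mrps18c, Mrpl12, and Mrps12, and of each pathway list the 3 highest and those with an adjusted p under 0.05. Other names were chosen after their values were seen. Alternatives were a pseudocount of 0.1, no filter, a mean of at least 1 FPKM, TPM, equal sums outside the mitochondrial genome, quantile normalization, voom, all 9 libraries in 1 fit, robust eBayes, a replicate block, and leaving out each library. Libraries under 50% mitochondrial reads, and only names starting with a capital letter, were added after seeing the data.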

Additional observations from a re-analysis of the deposited data

How the results depend on the processing

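Counts of member DEGs were 5 (model against control), 4 (SYD against model), and 0 (SYD against control), members with an adjusted p under 0.05 in limma numbered 0, 0, and 2, and the members' median log2 fold change minus that of all tested genes was 0.05, -0.16, and -0.18. In TPM, which counts mitochondrial reads in the total, the median of all genes moved to -2.60, 1.22, and -1.31. Members were then DEGs in 73, 1, and 50 cases, with an adjusted p under 0.05 in 68 (model against control) and 7 (SYD against control). Of all tested genes, 75.2%, 3.81%, and 43.4% were then DEGs, and 69.6% and 19.1% had an adjusted p under 0.05 in the first and last comparison. The members' relative medians were -0.30, 0.044, and -0.31. A pseudocount of 0.1 gave 3 DEGs in model against control and 2 in SYD against control, against 15.4% and 22.4% of all genes, with relative medians of 0.26 and -0.31 in the first and second comparison. No filter gave -0.049 in the second, and quantile normalization gave -0.13 and -0.028 in the first and second. Equal sums outside the mitochondrial genome and voom each gave 1 DEG in SYD against control, against 16.7% and 24.4% of all genes, and all 9 libraries in 1 fit left 0 adjusted calls there, against 1.82%. In libraries under 50% mitochondrial reads, DEGs were 1 and 1 in the first and second comparison, with 2 adjusted calls in the first, where 23.8% and 3.96% of all genes were DEGs and 26.3% had an adjusted call. The cause of these changes was not tested.

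Leaving out 1 library gave 1 to 12 DEGs, 0 to 5 adjusted calls, and relative medians of -0.02 to 0.14 in model against control. In SYD against model it gave 1 to 7 DEGs and relative medians of -0.26 to -0.02, and in SYD against control 0 to 2 DEGs, 0 to 3 adjusted calls, and relative medians of -0.22 to -0.10. Over all tested genes, DEGs in these fits were 9.42% to 24.1%, 2.27% to 17.95%, and 12.9% to 18.7% in the 3 comparisons, and adjusted calls 0% to 18.9%, 0%, and 1.504% to 25.4%. Deviations of libraries with the same number correlated at -0.27 to 0.19 over genes. With 3 libraries per group, these values cannot settle whether the numbers pair the libraries. With the number as a replicate block, DEGs were 3, 2, and 0 and adjusted calls 0 in each comparison, whereas 12.002%, 3.78%, and 16.3% of all genes were DEGs and 0% had an adjusted call.

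For single genes taken relative to the median of all genes, 16 results had a call, as a DEG or by adjusted p. Over their 272 values under the alternatives, both calls stood as before in 126, and at least 1 differed in 146. These 146 are not all losses, because some kept the call and gained the other. Mrps12 in SYD against control did so with a pseudocount of 0.1 (log2 fold change -1.05, adjusted p = 0.0291 in limma). The other 26 results had no call, and of their 442 values 413 stayed without one, 28 gained one, and 1 changed sign, Mrps9 in model against control, at -0.13 in libraries under 50% mitochondrial reads. In model 1, a member at its control level would have had as few as 18.4 reads among those at 0.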

Other observations

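Mrpl52 stands in the table as a long non-coding RNA although its description names the ribosomal protein, so it was not a member. Its FPKM was 3.63, 3.26, and 3.84 for control, 9.74, 3.26, and 10.04 for model, and 5.66, 4.77, and 7.54 for SYD. Model 1 and model 3 were the highest, model 2 lay within the control range, and all SYD libraries lay above all controls.

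Of 14 members with a copy elsewhere in the table by the protein name in its description, 2 (both Mrps17 entries) had copies with over 5% of their own reads.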
